A study of Caenorhabditis elegans with 6 samples.

Results

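The genes described here are 10 known targets of endogenous small RNA pathways in the nematode Caenorhabditis elegans, taken by name from the gene table of 46745 genes with a symbol: C18D4.6, E01G4.5, xol-1, Y116F11A.1, K02E2.6, C44B11.6, F39E9.7, W04B5.1, ZK380.5 and Y17D7C.1. Their messenger RNA was measured in 3 libraries of animals that carry plp-1(ok2155), an allele labelled as a loss of function of plp-1, and in 3 libraries of the wild-type strain N2. Both groups were mixed-stage hermaphrodite populations, from embryos to adults, raised on OP50 bacteria at 20 °C and collected when the plates were full but food remained. The labels name the libraries of a group biological replicates. The libraries held between 39331848 and 53486099 counts, and the targeted gene plp-1 had 20.4, 17.6 and 23 CPM (counts scaled to a common library size by trimmed mean of M-values) in plp-1(ok2155), against 293, 430.3 and 379 CPM in wild-type.

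C. elegans makes its own small interfering RNAs against many of its genes. In one branch, Dicer and the RNA-dependent RNA polymerase RRF-3 make primary small RNAs that the Argonaute ERGO-1 carries in oocytes and embryos. Other polymerases then copy the target into abundant secondary small RNAs, whose Argonautes lower the target's transcript in the cytoplasm or, as NRDE-3 does, in the nucleus. E01G4.5 is widely used as a target of ERGO-1 and NRDE-3, and xol-1, the switch gene that sets male fate and keeps dosage compensation off, is silenced in hermaphrodites with help from a piRNA. The libraries were poly(A)-selected, so they measured the targets and not the small RNAs.

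The data show that 3 of the 10 genes had higher CPM in every plp-1(ok2155) library than in any wild-type library, as did 8.75% of all tested genes; for E01G4.5 this held in CPM but not in FPKM, the per-length unit. C18D4.6 averaged 12.6 ± 3.5 CPM in plp-1(ok2155) and 1.69 ± 1.03 CPM in wild-type, E01G4.5 6.62 ± 2.78 and 2.61 ± 1.18 CPM, and xol-1 3.29 ± 1.49 and 1.11 ± 0.133 CPM, with plp-1(ok2155) first in each pair (SD, n = 3 each). None of the 10 passed the test across all genes with all libraries (edgeR's quasi-likelihood test, Benjamini-Hochberg adjusted p under 0.05), which called 0.265% of all tested genes higher. C18D4.6 passed it when the replicate number entered the model as a block, and with DESeq2. The groups overlapped for the other genes, of which ZK380.5 and Y17D7C.1 fell below the low-count filter of the edgeR test.

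**Figure D1:**
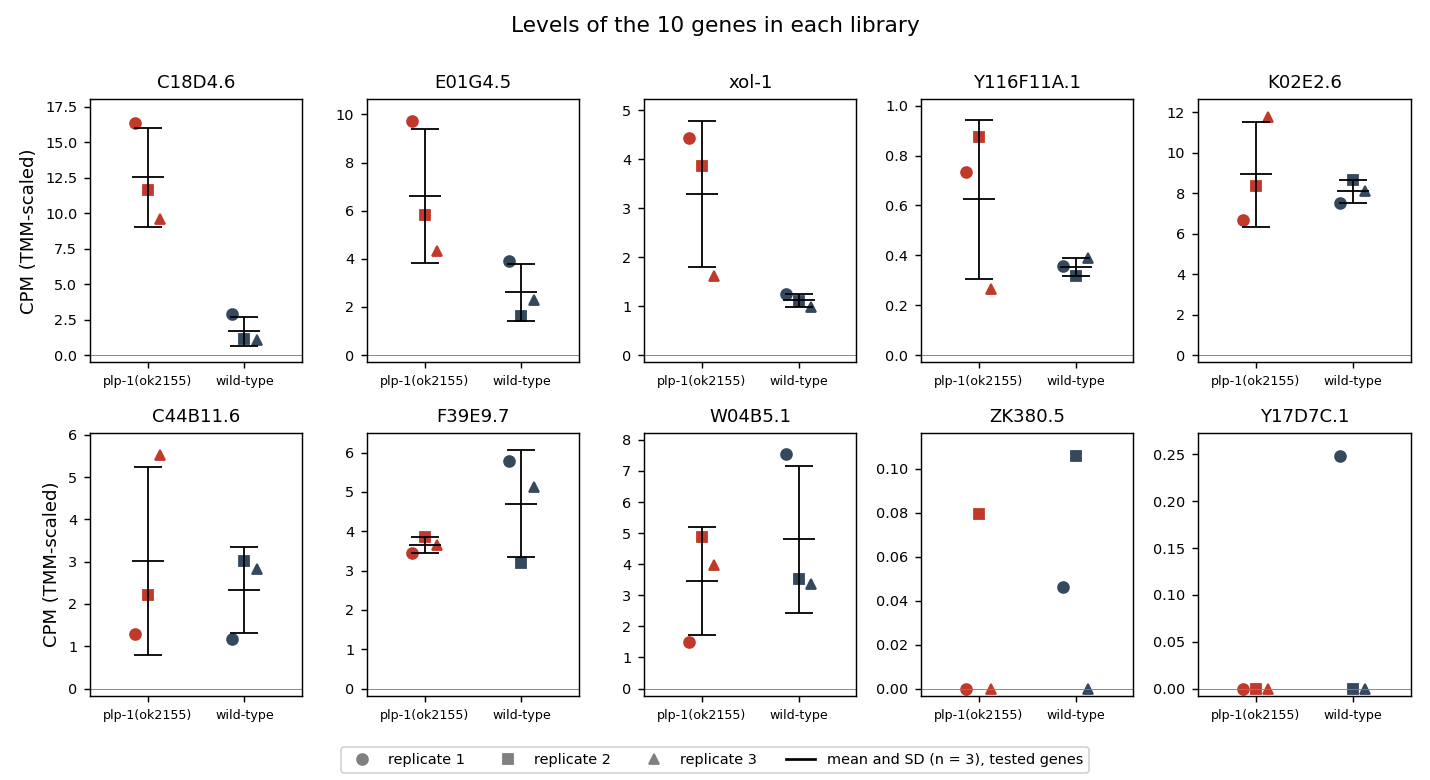
CPM of each of the 10 genes in the 3 plp-1(ok2155) libraries (red) and the 3 wild-type libraries (dark blue), with the marker shape giving the replicate number and bars the mean and SD of the 8 tested genes. C18D4.6 lies between 9.58 and 16.4 CPM in plp-1(ok2155) and between 1.08 and 2.88 CPM in wild-type, and Y17D7C.1 lies above 0 in a single library.

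The 8 genes that passed that filter, called the tested genes here, were counted in all 6 libraries, with at least 11 counts in each. None was called higher or lower by edgeR, where 0.265% of the 15090 tested genes were called higher and 0.0795% lower. Before adjustment, 3 had p below 0.05 in the higher direction and 0 in the lower, beside 6.36% and 3.2% of all tested genes. DESeq2 called 1 higher and 0 lower, beside 2.74% and 0.592% of its genes, and the fit with the replicate block called 1 higher and 0 lower, beside 1.03% and 0.424%. That fit without wild-type replicate 1 also called 1 higher and 0 lower, beside 0.315% and 0.103%. The same 3 genes showed no overlap in the higher direction, as did 8.75% of all tested genes, and 0 in the lower direction, against 5.49%. A positive log2 fold change was seen for 6 of the 8, as for 47.5% of all tested genes, and the median was 0.59 over the 8 and -0.03 over all tested genes. In whole animals, fewer cells of a type and less RNA per cell cannot be told apart.

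Seen per length of the gene model, the level differed widely within the group. The authors' deposited FPKM (fragments per kilobase of gene model, scaled to depth) put K02E2.6 first in both groups, at 23.3 ± 6.78 FPKM in plp-1(ok2155) and 20.7 ± 2.79 FPKM in wild-type (SD, n = 3 each). C44B11.6 came second, at 15.4 ± 11.2 FPKM in plp-1(ok2155) and 11.2 ± 3.81 FPKM in wild-type. C18D4.6 had rank 3 in plp-1(ok2155), at 13.7 ± 3.38 FPKM, and rank 6 in wild-type, at 2.04 ± 1.47 FPKM. In plp-1(ok2155) the ranges of these 3 genes overlapped, and all 3 lay above E01G4.5, W04B5.1 and F39E9.7, at 5.5 ± 2.13, 4.75 ± 2.59 and 4.68 ± 0.519 FPKM, apart from the lowest library of C44B11.6. The next were xol-1, at 2.52 ± 1.15 FPKM, which lay below F39E9.7 in every library, and Y116F11A.1, at 1.1 ± 0.617 FPKM, whose range overlapped that of xol-1. In wild-type each gene's range overlapped that of the next, from C44B11.6 through W04B5.1, F39E9.7, E01G4.5, C18D4.6 and xol-1 to Y116F11A.1. The range of K02E2.6 lay wholly above that of C44B11.6.

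**Figure D2:**
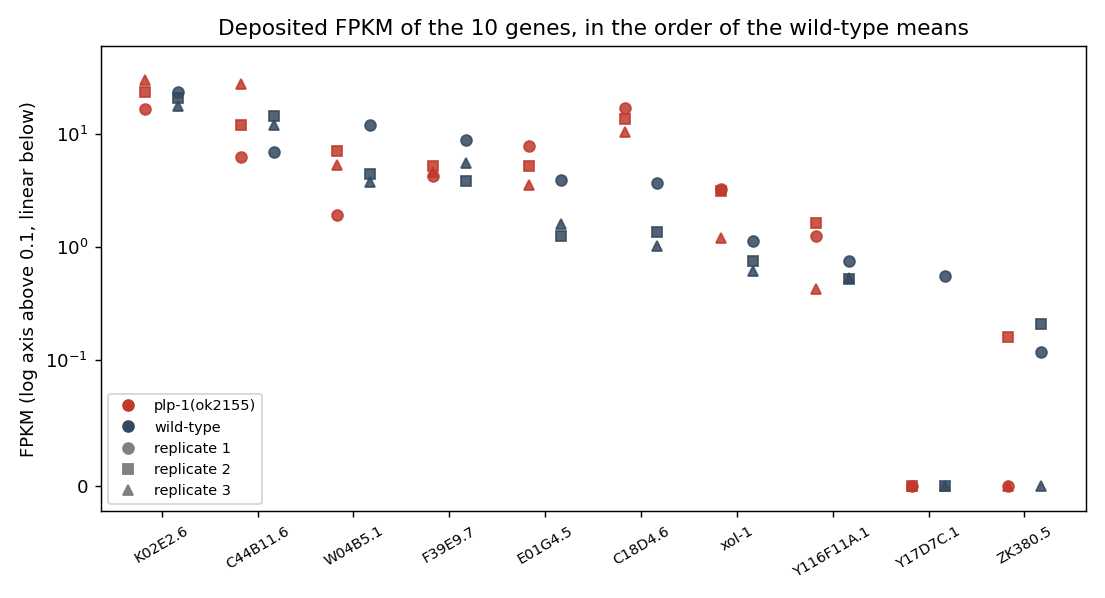
Deposited FPKM of the 10 genes in each library, on a log axis above 0.1 FPKM, in the order of the wild-type means, with plp-1(ok2155) in red left of wild-type in dark blue. K02E2.6 is the highest in wild-type, between 17.7 and 23.3 FPKM, and C18D4.6 lies between 10.4 and 17.1 FPKM in plp-1(ok2155).

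C18D4.6 (gene ID 180155) encodes an uncharacterised protein on the minus strand of chromosome V. The gene table places its coding span from 17535832 to 17538355 on WBcel235, and the annotation gives it 7 separate exon blocks, none shared with another gene. It held 738, 588 and 399 counts in plp-1(ok2155) replicates 1, 2 and 3, against 186, 53 and 36 counts in wild-type replicates 1, 2 and 3. These are 16.4, 11.67 and 9.58 CPM in plp-1(ok2155), against 2.88, 1.12 and 1.08 CPM in wild-type. All 3 mutant libraries lay above all 3 wild-type libraries, and wild-type replicate 1 was the highest of its group. The log2 fold change was 2.88 (SE 0.53, 95% interval 1.67 to 4.09), with an edgeR adjusted p of 0.0906, and C18D4.6 ranked 90 of 15090 genes by p. With the replicate block it was 3.00 (edgeR adjusted p = 0.00539), and with DESeq2 2.86 (adjusted p = 4.34e-06). Without wild-type replicate 1 it was 3.50 (edgeR adjusted p = 0.0589), and without that library but with the block it was 3.26 (edgeR adjusted p = 0.0418). The range of the edgeR adjusted p over the 6 fits that each left out a library was 0.0589 to 0.337.

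Most counts of C18D4.6 in plp-1(ok2155) belonged to one of its 4 transcripts. NM_075041, with a coding length of 897 bases, held 662, 483 and 353 counts in plp-1(ok2155), against 72, 50 and 17 counts in wild-type. It made up 89.7%, 82.1% and 88.5% of the gene's counts in plp-1(ok2155), against 38.7%, 94.3% and 47.2% in wild-type. The longer NM_001028497, of 963 bases, held 73, 101 and 43 counts in plp-1(ok2155), against 112, 0 and 18 counts in wild-type, so that its groups overlapped. The other 2 transcripts held at most 3 counts in any library. The same edgeR model, fitted to all 20551 tested transcripts, called 0 transcripts of C18D4.6, beside 0.0438% higher and 0.0146% lower of all transcripts. On the log2 scale NM_075041 differed by 3.54 (SE 0.48, edgeR adjusted p = 0.0784) and NM_001028497 by 0.93 (SE 1.30, edgeR adjusted p = 0.898). The counts are estimates that divide reads among overlapping transcripts of the gene, and the difference between the transcripts was not tested.

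**Figure D3:**
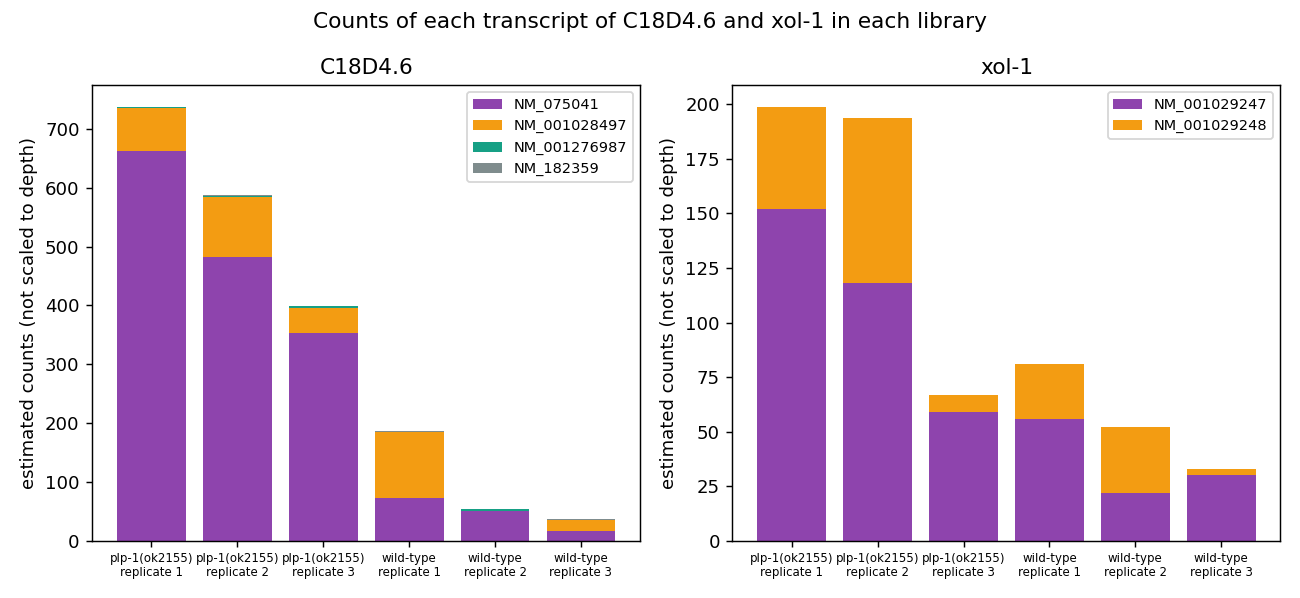
Estimated counts, not scaled to depth, of each transcript of C18D4.6 (left) and xol-1 (right), stacked by library, with the 3 plp-1(ok2155) libraries left of the 3 wild-type libraries. NM_075041 holds 353 to 662 counts in plp-1(ok2155) and 17 to 72 in wild-type.

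The 3 tested genes whose log2 CPM followed C18D4.6 most closely over the 6 libraries were kin-26, T08D2.5 and B0218.5, each with a Pearson correlation of 0.998. They were chosen by that measure, and 138 genes exceeded a correlation of 0.95, so the likeness is a description of 6 libraries. The gene kin-26, named as a kinase, held 26, 25 and 15 counts in plp-1(ok2155), against 4, 0 and 0 counts in wild-type. T08D2.5 had 4.62, 4.23 and 4.13 CPM in plp-1(ok2155), against 3.39, 2.85 and 2.91 CPM in wild-type. B0218.5 held 20, 16 and 9 counts in plp-1(ok2155), against 3, 0 and 0 counts in wild-type. In all of these genes, as in C18D4.6, replicate 1 was the highest library of each group.

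E01G4.5 (gene ID 174989), the ERGO-1 target, lies on the plus strand of chromosome II, with its coding span from 13472536 to 13473923 and 6 exon blocks. It had 9.71, 5.84 and 4.32 CPM in plp-1(ok2155), against 3.92, 1.61 and 2.31 CPM in wild-type. The groups did not overlap, although the lowest mutant library and the highest wild-type library lay close together, and in FPKM they crossed, at 3.54 in plp-1(ok2155) replicate 3 and 3.9 in wild-type replicate 1. The log2 fold change was 1.34 (SE 0.5, 95% interval 0.18 to 2.50, edgeR adjusted p = 0.431). Without wild-type replicate 1 it was 1.75, and without plp-1(ok2155) replicate 1 it was 0.96, and the adjusted p over all alternatives lay between 0.14 and 0.987. ERGO-1 acts in oocytes and embryos, so the levels of the oocyte markers oma-1, oma-2, rme-2, puf-5, mex-3 and cbd-1 are given beside it. Their sum was 4398, 2690 and 1499 CPM in plp-1(ok2155), against 2487, 1497 and 1366 CPM in wild-type. Replicate 1 was the highest library of each group for the markers as for E01G4.5, none of the 6 markers was called by edgeR (1 higher and 0 lower with p below 0.05 before adjustment, 0 by DESeq2), and their part in the difference was not tested.

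The gene xol-1 (gene ID 181061) lies on the plus strand of the X chromosome, from 8041327 to 8044409, with 6 exon blocks. Its levels were 4.42, 3.85 and 1.61 CPM in plp-1(ok2155), against 1.25, 1.1 and 0.989 CPM in wild-type. The wild-type libraries were close to each other, while plp-1(ok2155) replicate 3 was far below the other mutant libraries and still above the wild-type ones. The log2 fold change was 1.56 (SE 0.5, 95% interval 0.41 to 2.71, edgeR adjusted p = 0.32), and the adjusted p over its alternatives lay between 0.0776, with DESeq2, and 0.906. Without wild-type replicate 1 the log2 fold change of xol-1 was 1.65. Of its 3 transcripts, NM_001029247 held 152, 118 and 59 counts in plp-1(ok2155), against 56, 22 and 30 counts in wild-type. NM_001029248 held 47, 76 and 8 counts in plp-1(ok2155), against 25, 30 and 3 counts in wild-type, and the noncoding transcript NR_132547 was listed at 0 in all libraries. In both groups replicate 2 held the most counts of NM_001029248 and replicate 3 the fewest.

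Markers of early embryos, in which xol-1 acts, are given beside it. The summed level of end-1, end-3, med-1, tbx-37, tbx-38, pes-10 and hlh-1 was 22.3, 16.4 and 9.44 CPM in plp-1(ok2155), against 7.62, 14 and 6.69 CPM in wild-type. None of the 6 tested members was called by edgeR (1 higher and 0 lower with p below 0.05 before adjustment, 1 higher by DESeq2), and the sums of the groups overlapped. The endoderm factor end-3 stood at 1.69 on the log2 scale (SE 0.44, edgeR adjusted p = 0.186), with 1.78, 2.34 and 1.87 CPM in plp-1(ok2155), against 0.557, 0.697 and 0.6 CPM in wild-type. As for the oocyte markers, their part in the level of xol-1 was not tested.

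The listed genes that signal the X-chromosome dose or act below xol-1 were not called. Of 21 tested genes of the X-dose signal, dosage compensation and sex determination, edgeR called 0 and DESeq2 called 0, and 0 had p below 0.05 before adjustment. Their median log2 fold change was 0.35 and their values ran from -0.15 to 1.23. A positive log2 fold change was seen for 19 of the 21, beside 47.5% of all tested genes, and this share was not tested. The highest was her-1, the secreted signal of male fate, with 1.36, 1.29 and 0.864 CPM in plp-1(ok2155), against 0.232, 0.697 and 0.57 CPM in wild-type (log2 fold change 1.23, SE 0.57, edgeR adjusted p = 0.555). The dose-signal genes sea-1 and sea-2 stood at 1.02 (edgeR adjusted p = 0.595) and 0.91 (0.595), and tra-1, the terminal regulator of sexual fate, at 0.54 (0.595). Of the male markers, mab-3, a regulator of male traits, had 0.267, 0.397 and 0.48 CPM in plp-1(ok2155), against 0.0464, 0.148 and 0.18 CPM in wild-type (edgeR adjusted p = 0.522), and dmd-3 was at 0 counts in all libraries. Of the 2 male markers tested, edgeR called 0 (1 higher with p below 0.05 before adjustment, 0 by DESeq2). Over all 3 in the table, her-1 among them, the sum was 1.62, 1.69 and 1.34 CPM in plp-1(ok2155), against 0.279, 0.845 and 0.75 CPM in wild-type. Most of it in every library was her-1, so the sum is not separate from the her-1 values above. The part of these markers in the level of xol-1 was not tested.

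Y116F11A.1, K02E2.6 and C44B11.6 had small positive log2 fold changes and overlapping groups. Y116F11A.1 (gene ID 180297), which the gene table describes as an ATP-dependent DNA helicase, lies on chromosome V from 19730795 to 19731999. It held 33, 44 and 11 counts in plp-1(ok2155), against 23, 15 and 13 counts in wild-type. Replicates 1 and 2 of plp-1(ok2155) were above every wild-type library in CPM, and replicate 3 was the lowest of all. Its log2 fold change was 0.82 (SE 0.6, 95% interval -0.57 to 2.20, edgeR adjusted p = 0.726).

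K02E2.6 (gene ID 180335), an uncharacterised protein on chromosome V from 20380669 to 20381409, had the highest mean FPKM of the group. It had 6.67, 8.38 and 11.8 CPM in plp-1(ok2155), against 7.52, 8.64 and 8.13 CPM in wild-type. The mutant libraries fell on both sides of the wild-type ones, and the log2 fold change was 0.14 (SE 0.36, 95% interval -0.68 to 0.97, edgeR adjusted p = 0.933). Without plp-1(ok2155) replicate 3 it was -0.183. K02E2.6 shares 19 exonic bases with an unnamed noncoding RNA on the same strand.

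C44B11.6 (gene ID 259495), a single-exon gene of 189 bases on chromosome III from 3153148 to 3153336, had 1.29, 2.22 and 5.52 CPM in plp-1(ok2155), against 1.16, 3.02 and 2.82 CPM in wild-type. Its highest library was plp-1(ok2155) replicate 3. Replicate 1 was the lowest of each group, whereas it was the highest of each group in C18D4.6, E01G4.5 and xol-1. The log2 fold change was 0.37 (SE 0.64, 95% interval -1.10 to 1.83, edgeR adjusted p = 0.891), and it was -0.463 without plp-1(ok2155) replicate 3 and 0.036 without wild-type replicate 1. The yolk protein genes vit-1 to vit-6, markers of adults, summed to 64240, 44681 and 94477 CPM in plp-1(ok2155), against 37125, 88053 and 159710 CPM in wild-type. The mutant library highest in C44B11.6, replicate 3, was also the highest mutant library in yolk, but the lowest ones were different libraries. Wild-type replicate 1 was the lowest wild-type library in both, but the highest ones were different libraries. None of the 6 yolk genes was called by edgeR (0 with p below 0.05 before adjustment, 0 by DESeq2), and their part in the level of C44B11.6 was not tested.

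F39E9.7, W04B5.1 and ZK380.5 are listed as pseudogenes in the reference annotation, while the gene table calls ZK380.5 protein-coding. F39E9.7 (gene ID 185495), on the minus strand of chromosome II from 3306144 to 3307505, had 3.45, 3.85 and 3.65 CPM in plp-1(ok2155), against 5.79, 3.19 and 5.13 CPM in wild-type. The mutant libraries were close together within the wild-type range, and the log2 fold change was -0.37 (SE 0.39, 95% interval -1.27 to 0.54, edgeR adjusted p = 0.814), and -0.195 without wild-type replicate 1. The microRNA gene mir-260 lies on its opposite strand with 103 shared exonic bases, as do 5 short noncoding RNAs with 18 to 21 bases each. The gene mir-260 was at 0 counts in all libraries.

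W04B5.1 (gene ID 175362), on the plus strand of chromosome III from 2428204 to 2429430, had 1.51, 4.88 and 3.99 CPM in plp-1(ok2155), against 7.54, 3.51 and 3.36 CPM in wild-type. Wild-type replicate 1 was the highest library and plp-1(ok2155) replicate 1 the lowest, while the other libraries of both groups lay close to each other. The log2 fold change was -0.47 (SE 0.56, 95% interval -1.76 to 0.81, edgeR adjusted p = 0.831), and without wild-type replicate 1 it was 0.004. The reference annotation has a protein-coding gene, W04B5.8, on the same strand with 668 shared exonic bases, which has no row of its own in the gene table.

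ZK380.5 and Y17D7C.1 fell below the low-count filter. With no filter, the log2 fold change was -0.95 for ZK380.5 (edgeR adjusted p = 0.864) and -5.11 for Y17D7C.1 (edgeR adjusted p = 0.624), both from a fit to 22426 genes in which the size for Y17D7C.1 depends on the prior count. DESeq2 gave Y17D7C.1 an adjusted p of 0.815 and ZK380.5 none. ZK380.5 (gene ID 3896895), on the X chromosome from 1647991 to 1649237, held 0, 4 and 0 counts in plp-1(ok2155), against 3, 5 and 0 counts in wild-type. Y17D7C.1 (gene ID 189451), on chromosome V from 18706570 to 18708363, held 0 counts in all plp-1(ok2155) libraries, against 16, 0 and 0 counts in wild-type. A total of 0 over the mutant libraries allows up to 3 counts, or 0.0219 CPM, by counting error alone. All 16 counts came from wild-type replicate 1, and 15 of them were assigned to its noncoding transcript NR_102116. A fall or a small rise was not detectable for either gene at this depth. A large rise was within reach, and neither gene showed one. The listed target W09B7.1, with 26, 0 and 0 counts in wild-type, was called higher (log2 fold change 9.07, edgeR adjusted p = 0.0233).

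Wild-type replicate 1 was the highest wild-type library for 5 of the 8 tested genes, as it was for 38% of all tested genes. These were C18D4.6, E01G4.5, xol-1, F39E9.7 and W04B5.1, and for the last 2 it was the highest of all 6 libraries. Cuticle markers also differed between the wild-type libraries. The summed level of rol-6, sqt-1, sqt-3, dpy-7 and bli-1 was 42, 26.5 and 44.2 CPM in plp-1(ok2155), against 176, 13.4 and 24.5 CPM in wild-type replicates 1, 2 and 3. The collagen genes sqt-3 and dpy-7 carried the high sum of wild-type replicate 1, with sqt-3 at 31.7, 12.2 and 22.8 CPM in plp-1(ok2155), against 151.1, 10.8 and 16.6 CPM in wild-type. The other 3 markers, sqt-1, rol-6 and bli-1, had their lowest level of all libraries in wild-type replicate 1. Of the 5 markers, edgeR called 1 higher, sqt-1 (log2 fold change 3.89, SE 0.56, edgeR adjusted p = 0.0382), and 3 were higher with the replicate block and with DESeq2. The part of these markers in the levels of the 10 genes was not tested.

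**Figure D4:**
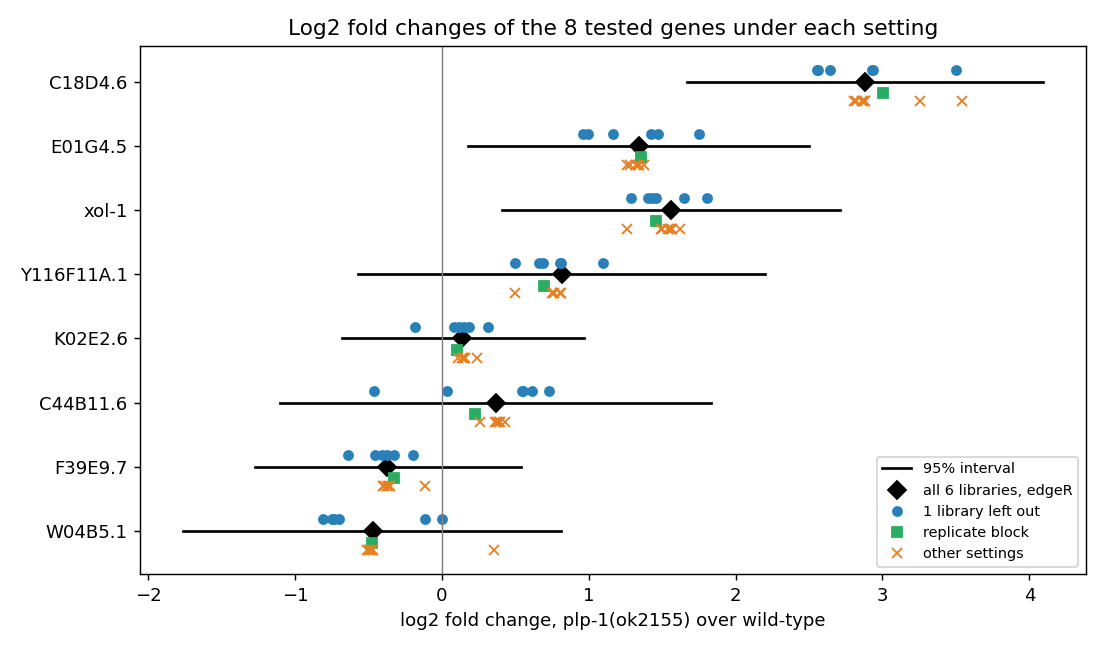
Log2 fold change of plp-1(ok2155) over wild-type for the 8 tested genes, with the value from all 6 libraries (diamond), its 95% interval (line) and the values with 1 library left out (circles), with the replicate block (squares) and under the other settings (crosses). The values of C18D4.6 lie between 2.55 and 3.54, and those of W04B5.1 between -0.806 and 0.356.

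Several other listed targets of these pathways had larger log2 fold changes than C18D4.6. Of 24 other listed targets, 23 were in the table and 22 were tested. Of these 22, edgeR called 9 higher and 0 lower, beside 0.265% and 0.0795% of all tested genes (11 higher with DESeq2, beside 2.74%). A positive log2 fold change was seen for 17 of the 22, beside 47.5% of all tested genes. Among the 9, W09B7.1 and F07B7.1 had near-equal counts in every library, as did W09B7.2 and F07B7.2. C38D9.13 is a neighbour of C38D9.2 by name, so the 9 calls are not fully separate. The list was assembled with earlier results of these data known, so its count is no independent evidence of a direction. Its median log2 fold change was 2.08, and its values ran from -1.21 to 9.21. The largest change was that of C38D9.2, with 310.3 ± 60.8 CPM in plp-1(ok2155) and 0.499 ± 0.499 CPM in wild-type (SD, n = 3 each). C08F11.7 had 12.4 ± 2.32 CPM in plp-1(ok2155) and 0.48 ± 0.0779 CPM in wild-type, which is 4.68 on the log2 scale (SE 0.43, edgeR adjusted p = 0.00847). E01G4.7, a neighbour of E01G4.5 by name, had 6.42 CPM in plp-1(ok2155) and 6.07 CPM in wild-type, a log2 fold change of 0.08 (edgeR adjusted p = 0.965). The germline gene bath-45 stood at -1.16 (edgeR adjusted p = 0.495).

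**Figure D5:**
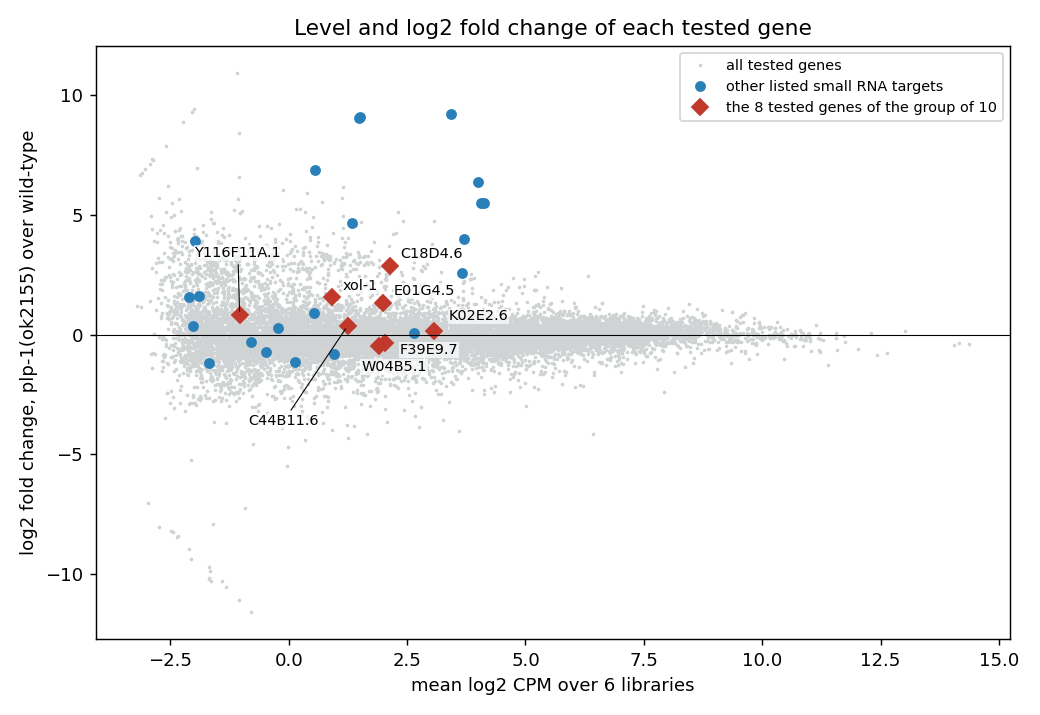
Log2 fold change of plp-1(ok2155) over wild-type against the mean log2 CPM over 6 libraries for all 15090 tested genes (grey), the 22 tested other targets (blue circles) and the 8 tested genes of the group of 10 (red diamonds). C18D4.6, at 2.88, is the highest of the 8, and the other targets reach 9.21.

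The factors that make and use these small RNAs were not called by edgeR. Of 14 factors of the primary pathway, 0 were called by edgeR and 2 by DESeq2, with 2 higher and 0 lower at p below 0.05 before adjustment and a median log2 fold change of 0.22. The 2 were alg-4 and alg-3, Argonautes of the sperm-making germline, at 3.29 (edgeR adjusted p = 0.136) and 3.35 (0.283). The gene ergo-1 had a mean of 165 CPM in plp-1(ok2155) and 93.1 CPM in wild-type, or 0.83 on the log2 scale (SE 0.41, edgeR adjusted p = 0.583), and dcr-1, which encodes Dicer, stood at 0.46 (0.692). Sperm markers are given beside these: the sum of 8 of them, of which edgeR called 0 (7 higher with p below 0.05 before adjustment, 6 higher by DESeq2, 2 higher with the replicate block), was 29.1, 31.4 and 11 CPM in plp-1(ok2155), against 3.22, 2.07 and 4.89 CPM in wild-type, and their part was not tested.

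Of 26 tested factors of secondary small RNAs, edgeR called 0 (0 with p below 0.05 before adjustment), DESeq2 called 0 of the same 26, and the median log2 fold change was 0.09. The Argonaute gene wago-10, below the low-count filter, held 14, 25 and 6 counts in plp-1(ok2155), against 0 counts in all wild-type libraries, and was called higher by DESeq2 (adjusted p = 0.0165). The Argonautes ppw-2 and wago-1 stood at 0.56 (edgeR adjusted p = 0.524) and 0.59 (0.622), and the helicase gene rde-12 at 0.52 (0.576). Of 12 nuclear RNA interference factors, 0 were called by edgeR, by DESeq2 or before adjustment, and their median was 0.26. The nuclear Argonaute hrde-1 stood at 0.68 (edgeR adjusted p = 0.571) and nrde-2 at 0.31 (0.71). Of 12 tested piRNA factors, 0 were called by edgeR and 0 by DESeq2, 1 was higher and 0 lower before adjustment, and the median was -0.08. The piRNA Argonaute prg-1 stood at 0.70 (edgeR adjusted p = 0.406). Log2 fold changes were positive for 10 of the 14 primary and 15 of the 26 secondary factors, beside 47.5% of all tested genes. They were positive for 11 of the 12 nuclear and 5 of the 12 piRNA factors, and these shares were not tested.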

How the data were processed

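Per the file headers, the authors deposited estimated counts of reads and FPKM values (fragments per kilobase, scaled to depth) for 46769 genes and 56158 transcripts. Per the submitters' processing notes, the tools were DESeq2, StringTie 1.3.4d, HISAT2 2.1.0, Bowtie2 2.3.4.1, Trimmomatic 0.38 and FastQC 0.11.7, and the labels name WBcel235. The labels do not state whether counting was stranded. Transcript counts from 1 to 50 lay 0 to 1 above FPKM times length in 100% of cases (tolerance 0.05), so the estimates had been rounded up.

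Columns were matched to samples through the design text. Leaving out 24 entries without a symbol (0.0024% to 0.025% of counts), genes passing filterByExpr were tested with edgeR 4.0.16 (R 4.3.3), TMM scaling and the group as the single term. Intervals are 95% and counting limits cover counting error only. DESeq2 1.42.0 with its defaults was fitted to all genes with a symbol and gave 17750 of them an adjusted p. Its shares are of those 17750. Other settings were other scalings, no filter, at least 1 CPM in 3 libraries, and each library left out. The fit was tested on simulated data. Positions are 1-based, with exons from Ensembl's annotation of WBcel235.

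Same-numbered libraries deviated together (correlations 0.28, 0.21 and 0.36, against -0.34 to -0.04 for other pairs). Levels were first centred within each group, so positive values for same-numbered pairs push those of other pairs down. The contrast between them is therefore partly arithmetic. In the replicate block, an alternative to the main fit, the numbers were taken to pair the libraries. That pairing comes from these data and not from the labels. The members and lists were chosen with earlier results of these data known. Named genes were the 10 members, plp-1, up to 4 genes of smallest p per list, the 3 genes most like the member with the smallest p, and overlapping genes. E01G4.7, bath-45, dmd-3, dpy-7, wago-10, C38D9.13, W09B7.1, W09B7.2, F07B7.1 and F07B7.2 were named after their values were seen.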

Additional observations from a re-analysis of the deposited data

How the results depend on the processing

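The direction of C18D4.6, E01G4.5, xol-1, Y116F11A.1 and F39E9.7 held under every alternative tried. C18D4.6 was called in 3 of its 14 alternatives, with the replicate block, with DESeq2, and with the block without wild-type replicate 1, an alternative chosen after seeing the data. W04B5.1 turned to 0.004 without wild-type replicate 1 and to 0.356 with the block without that library, K02E2.6 to -0.183 and C44B11.6 to -0.463 without plp-1(ok2155) replicate 3; the cause was not tested. Over the fits that each left out a library, W04B5.1 ran from -0.806 to 0.004, K02E2.6 from -0.183 to 0.313 and C44B11.6 from -0.463 to 0.729. The number of the 10 genes called higher was 0 with each library left out, as with all libraries, and 1 with the replicate block, with DESeq2, and with the block without wild-type replicate 1.

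Over all genes, 40 were called higher and 12 lower. The replicate block gave 155 and 64, and DESeq2 486 and 105. With 1 library left out, 0 to 18 were higher and 1 to 5 lower: 18 and 5 without wild-type replicate 1, 0 and 1 without replicate 2, 1 and 1 without replicate 3, and 5, 3 or 4 higher and 1 lower without plp-1(ok2155) replicate 1, 2 or 3. The median log2 fold change of the 8 tested genes lay between 0.427 and 0.708 over the alternatives that kept all 8, and was 0.396 over the 7 left with at least 1 CPM in 3 libraries. Levels near 1 CPM rest on fewer than 100 counts per library, which limits what can be seen of Y116F11A.1, ZK380.5 and Y17D7C.1. Some libraries of the other genes were also below 100 counts. In wild-type, xol-1 held 81, 52 and 33 counts in replicates 1, 2 and 3. In wild-type replicates 2 and 3, C18D4.6 held 53 and 36 counts and E01G4.5 76 and 77. C44B11.6 held 75 and 94 counts in wild-type replicates 1 and 3 and 58 in plp-1(ok2155) replicate 1.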

Other observations

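C18D4.6 was the one member of the 10 with called genes within 50 kb, a window chosen after the data were seen. The share of all tested genes with a called gene that near was not counted, so this is a description only. Of the 7 tested neighbours with a name in the annotation, C38D9.2 and C38D9.13 were called higher by edgeR, and the nearer, C38D9.2, lies 28795 bases from the coding span of C18D4.6. The median log2 fold change of the 7 was -0.23, and they ran from -2.30 to 9.21. Around E01G4.5, 13 tested neighbours had a median of -0.07 and ran from -1.20 to 4.02, with 0 called, and the nearest called higher gene was F15D4.5, 224762 bases away. Around xol-1, 13 tested neighbours ran from -1.52 to 0.86 with a median of -0.22, and 0 were called.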
